A study of Mus musculus with 2 samples.

Results

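The genes described here encode the degradative machinery of the lysosome. They are 44 genes listed by name: cathepsins and other lysosomal peptidases, glycosidases, sulfatases, lipid hydrolases and their helper proteins, proteins of the lysosome membrane, and the regulators Grn and Tfeb. The list was chosen with earlier results of these data known, so counts over it describe a chosen set. Each was represented by its brightest probe set, the one with the highest mean of the arrays, and a gene counted as measured when that signal lay above the 40th percentile of its array, called the floor here, on at least 1 array. All 44 were among the 18193 genes named on the array, and 42 of them were measured, of 13332 measured genes in all. Ctsc and Ctss were not.

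CMT-93 is a cell line from a mouse rectal carcinoma. Its parental cells were compared with CMT-93-PM1, a culture grown out of lung tumours formed by the same line after tail vein injection into female C57BL/6 mice, 6 weeks old at injection and killed 8 weeks later, to find genes whose expression differs between the lung-metastatic derivative and its parent. Both cultures were grown in the same medium with 10% fetal bovine serum, and the parental cells did not pass through a mouse. Each line was profiled on 1 Affymetrix array from 6 µg of total RNA. The sources used here do not say whether PM1 is 1 clone or a mixed outgrowth. With 1 array per line no difference below has a replicate check, no test between the lines was possible, and a difference between the lines cannot be told apart from one of culture, labelling or hybridization. The number of arrays limits the precision of every value.

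A lysosome is an acidic compartment in which hydrolases break down proteins, glycans and lipids delivered by endocytosis and autophagy. Most soluble hydrolases are made in the endoplasmic reticulum, tagged with mannose 6-phosphate in the Golgi and carried to the lysosome by mannose 6-phosphate receptors, and a part of them can be secreted. In tumours, secreted cathepsins are known for cleaving matrix and junction proteins. Many lysosomal genes carry E-box sequences near their start sites, which are bound by the transcription factor TFEB and its relatives TFE3 and MITF.

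In the lung-recovered line, 8 of the 42 measured lysosomal genes were higher by 2-fold or more and 0 were lower by as much. The background over all measured genes was 4.42% higher and 2.55% lower by the same limit, against 19% and 0% of the lysosomal genes. The 8 were the peptidase genes Ctsh and Lgmn, the glycosidase genes Gusb, Galc and Fuca1, the sulfatase genes Galns and Arsa, and the membrane glycoprotein gene Cd68. Log2 ratios, lung-recovered minus parental, were above 0 for 32 of the 42 genes and below 0 for 10, and their median was 0.34, while the median over all measured genes was 0.00 with 49.2% above 0. At 1.5-fold, 10 lysosomal genes were higher and 0 lower, with a background of 11.5% higher and 6.95% lower. Gusb, Ctsk and Ctso passed the limit for being measured only through the lung-recovered array and so had to be on its side. Of the 39 lysosomal genes above the limit on both arrays, 7 were at least 2-fold higher, or 17.9%, and 0 lower, beside 4.03% and 2.27% of the 12614 genes of that kind, and their median ratio was 0.35.

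The only spread these arrays hold is that between probe sets of 1 gene. Over 6172 genes with several measured probe sets, the SD of their log2 ratios had a median of 0.18 and a 90th percentile of 0.52, or 1.44-fold. This spread comes from 1 hybridization per line and can hold differences between transcript forms as well as technical ones. It says nothing of how cultures vary. Of the 42 lysosomal genes, 12 had ratios above 0.52, 0 lay as far below 0, and the other ratios were within it, beside 13.5% of all measured genes above and 8.36% below. The 12 include Gusb, which had to be on that side. Of the 39 lysosomal genes above the floor on both arrays, 11 were above 0.52 and 0 as far below 0. Of the 12614 genes of that kind, 1694 were above and 1021 below.

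**Figure D1:**
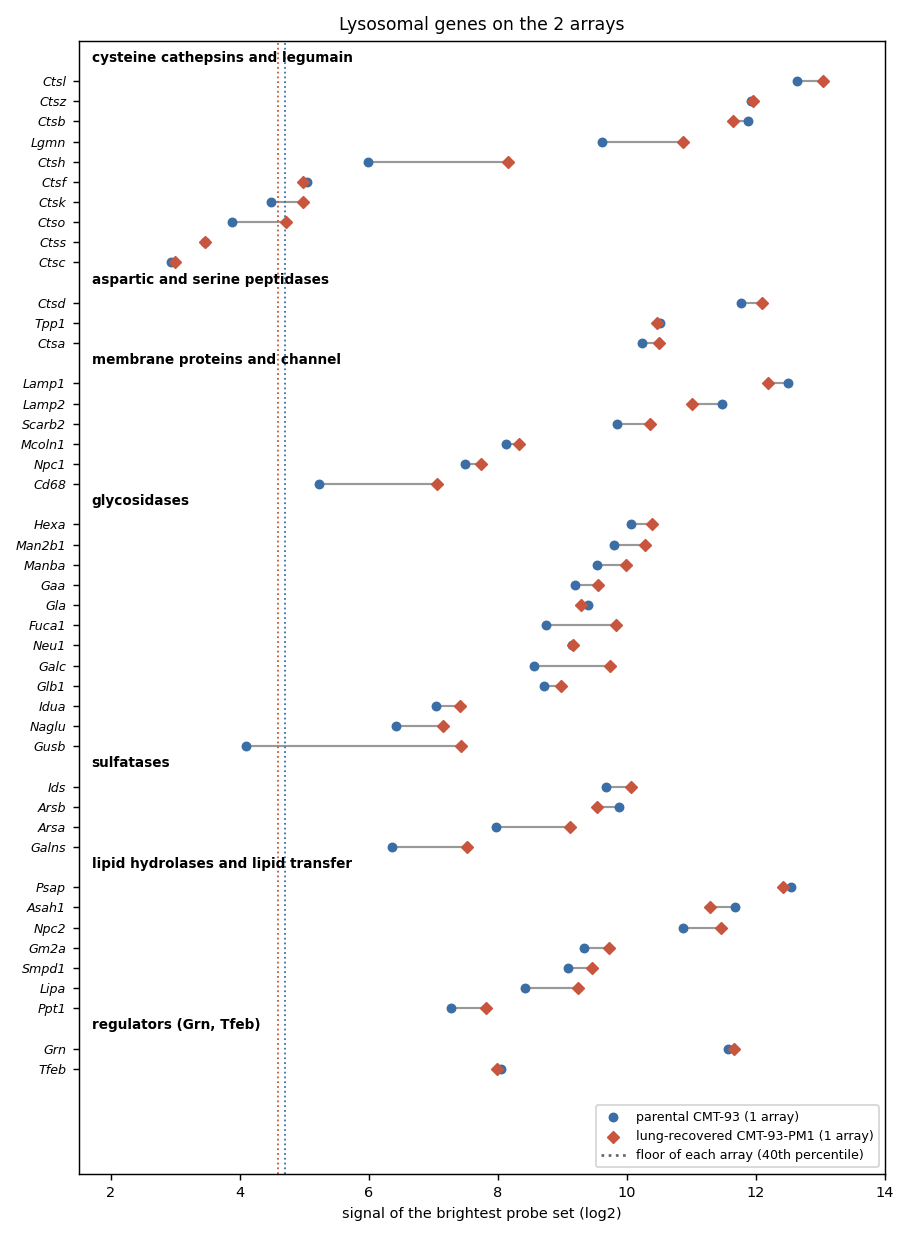
Log2 signal of the brightest probe set of each of the 44 lysosomal genes on the parental array (circles) and the lung-recovered array (diamonds), grouped by role, with dotted lines at the 40th percentile of each array (4.69 and 4.59). Signals of different probe sets do not rank transcript levels, so each gene is read along its own line. Gusb, Ctsh and Cd68 have the widest gaps, and Ctsc and Ctss lie under both lines.

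Promoter sequences are shown for 4 of these genes, since the E-box is the feature through which lysosomal genes are known to be controlled together. The letters CACGTG (the E-box core, its own reverse complement) and TCACGTG (the extended core, CACGTGA on the other strand, which contains the core) were searched on both strands of windows from 250 bases before to 50 after each RefSeq start site in GRCm38.p6. A gene with several promoters counted as holding a match if any of them did. Promoters were found for 39 of the 44 genes, and Ctsb, Ctsh, Npc1, Galns and Asah1 had no entry. The core was in the window of 12 of the 39, or 30.8%, beside 8.09% of 27025 genes, and the extended core in 10, or 25.6%, beside 4.29%. Lgmn and Arsa were at least 2-fold higher and hold the extended core, Ctsd holds it at 2 places with little difference between the lines, and Gusb, with the largest ratio, holds no core. The windows lie at chr12:102439093-102439342 (Lgmn, the one of its 2 promoters with a match), chr15:89477425-89477674 (Arsa), chr7:142387828-142388077 (Ctsd) and chr5:130003050-130003299 (Gusb), all on the minus strand, and are printed 5′ to 3′ up to the base before the start site, with each match and its flank in capitals.
Lgmn: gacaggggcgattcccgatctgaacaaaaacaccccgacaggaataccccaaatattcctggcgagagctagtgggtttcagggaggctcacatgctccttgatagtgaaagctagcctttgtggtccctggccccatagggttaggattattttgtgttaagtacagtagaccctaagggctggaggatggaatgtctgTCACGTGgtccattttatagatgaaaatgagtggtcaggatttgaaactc
Arsa: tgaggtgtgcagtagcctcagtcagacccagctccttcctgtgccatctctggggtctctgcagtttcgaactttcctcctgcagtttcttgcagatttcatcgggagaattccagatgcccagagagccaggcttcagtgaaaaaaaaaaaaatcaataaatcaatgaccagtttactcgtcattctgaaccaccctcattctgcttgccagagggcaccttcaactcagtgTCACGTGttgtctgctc
Ctsd: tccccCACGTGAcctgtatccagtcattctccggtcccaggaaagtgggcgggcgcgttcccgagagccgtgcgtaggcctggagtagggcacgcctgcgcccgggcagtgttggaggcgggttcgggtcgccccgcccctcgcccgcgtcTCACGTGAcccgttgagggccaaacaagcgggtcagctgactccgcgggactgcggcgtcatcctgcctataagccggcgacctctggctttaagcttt
Gusb: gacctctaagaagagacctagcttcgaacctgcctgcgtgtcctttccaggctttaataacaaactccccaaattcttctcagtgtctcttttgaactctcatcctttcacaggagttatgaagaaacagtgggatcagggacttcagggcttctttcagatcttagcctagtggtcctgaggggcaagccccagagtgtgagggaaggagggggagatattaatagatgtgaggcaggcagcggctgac
The core began 49 bases before the start site of Lgmn, 16 before that of Arsa, and 245 and 98 before that of Ctsd. Measured genes with the extended core had a median log2 ratio of 0.30 (10 genes, from -0.32 to 1.25), and those without it 0.37 (27 genes, from -0.46 to 2.73). Of the genes at least 2-fold higher, 2 held the core and 4 had a promoter without it. A match is a string of letters in a window and was not tested as a binding site.

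Among the cysteine cathepsins and legumain, 2 of 8 measured genes were higher by 2-fold or more and 0 lower (background 4.42% and 2.55%). Their median log2 ratio was 0.16, and 0.40 and 0.45 with the floor at the 60th and the 20th percentile. Ctsh encodes cathepsin H, which acts mainly as an aminopeptidase. Its probe set 1418365_at read 5.98 log2 in the parental line and 8.16 in the lung-recovered line, 4.53-fold higher, and its other probe set read 5.45 and 7.59, a log2 ratio of 2.14. By its ratio of 2.18 it ranked 72 of the 13332 measured genes. Lgmn encodes legumain, the asparaginyl endopeptidase that also processes cathepsins to their mature chains. It read 9.61 and 10.86 by 1448883_at, its only probe set, and was 2.38-fold higher.

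The genes for cathepsins L and B, best known as broad endopeptidases, and for cathepsin Z differed little. Ctsl, for cathepsin L, read 12.63 and 13.03, a log2 ratio of 0.40. Ctsb, for cathepsin B, read 11.87 and 11.64, and each of its 5 probe sets had a ratio between -0.35 and -0.13. Ctsz, for the carboxypeptidase cathepsin Z, read 11.92 and 11.95, with its other probe sets at -0.02 and 0.01. All of these ratios were within the probe-set spread.

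The remaining cysteine cathepsins were near or under the floor. Ctsf read 5.04 and 4.98. Ctsk, for the collagen-cleaving cathepsin K of osteoclasts, read 4.48 and 4.97, and Ctso read 3.87 and 4.71, so both were above the floor on the lung-recovered array alone, with bounds of 1.21-fold and 1.01-fold. Ctsc, whose product activates granule serine proteases, read 2.93 and 2.99, and Ctss, for the cathepsin S of antigen-presenting cells, read 3.46 on both arrays. Neither gene was measured in either line. Ctso was thus the gene closest to the limit from inside and Ctss from outside.

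None of the 3 aspartic and serine peptidase genes reached 1.5-fold in either direction (background 11.5% higher and 6.95% lower). With 3 genes such a count says little. Ctsd, for the aspartic protease cathepsin D, read 11.76 and 12.09, a log2 ratio of 0.33. Ctsa, for the carboxypeptidase that also protects β-galactosidase and neuraminidase in a complex, read 10.23 and 10.50, but a second probe set read 6.21 and 5.95. Tpp1, the tripeptidyl peptidase gene, read 10.51 and 10.46, and 7.78 and 7.60 by its other probe set.

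The glycosidase genes had a median log2 ratio of 0.41. Of 12 genes, 3 were at least 2-fold higher, 0 were lower, and 11 had ratios above 0. The background was 4.42% higher and 2.55% lower by 2-fold, and 49.2% above 0. Gusb is among the 3 and the 11, but it was measured only through the lung-recovered array and so had to be higher. Gusb encodes β-glucuronidase, which removes glucuronic acid from glycosaminoglycan chains. By 1448124_at it was at the floor of the parental array at 4.09 and read 7.42 in the lung-recovered line, at least 6.63-fold higher. Its other probe set read 4.03 and 6.25, a ratio of at least 1.56 log2. The gene ranked 35 of all measured genes by this bound, which depends on the floor, at 1.24 log2 when the 60th percentile was the floor and 3.33 without one.

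Galc encodes galactosylceramidase, which degrades the myelin lipid galactosylceramide. It read 8.56 and 9.74 by 1452907_at, 2.27-fold higher, and 4.75 and 5.71 by a dimmer probe set. Fuca1, for the α-fucosidase of glycoproteins, read 8.75 and 9.83 by 1416109_at, 2.11-fold higher. Its other probe sets read 8.29 and 8.95, 7.99 and 8.68, and 6.38 and 5.87, so the last lay on the other side at -0.51 log2. Fuca1 was under 2-fold by the median of its probe sets (0.68 log2). After quantile normalization (0.99 log2) and after lowess (0.9997 log2) it was only just under.

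Other glycosidases had smaller ratios. Naglu, which acts on heparan sulfate, read 6.42 and 7.14 and was 1.65-fold higher. Man2b1, an α-mannosidase gene, read 9.80 and 10.28 by its brightest probe set and 7.03 and 6.48 by its other. Manba, for β-mannosidase, read 9.54 and 9.98. The acid α-glucosidase gene Gaa, whose product degrades glycogen, read 9.20 and 9.55, and 8.40 and 9.10 by its other probe set. Hexa, for the hexosaminidase α-subunit, read 10.06 and 10.38, Idua, for α-iduronidase, 7.04 and 7.41, and Glb1, for β-galactosidase, 8.71 and 8.98. Gla, for α-galactosidase, read 9.39 and 9.28, and 6.69 and 6.71 by a dimmer probe set. The neuraminidase gene Neu1 read 9.14 and 9.16, with its other probe sets at -0.31 and -0.20 log2. These genes, apart from Naglu, were within the probe-set spread by their brightest probe sets.

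Of the 4 sulfatase genes, 2 were at least 2-fold higher and 0 were lower, beside 4.42% and 2.55% of all measured genes. The median log2 ratio of the 4 was 0.78. Galns, whose product removes 6-sulfate groups from keratan and chondroitin sulfate, read 6.35 and 7.52 by 1448744_at and was 2.25-fold higher, while its other probe set was under the floor on both arrays. Arsa, the arylsulfatase that turns sulfatide into galactosylceramide, the substrate of Galc, read 7.96 and 9.12 by its only probe set, 1460346_at, and was 2.23-fold higher. Ids, for iduronate sulfatase, read 9.67 and 10.06, and its 3 dimmer measured probe sets had ratios from 0.00 to 0.12. Arsb, for the 4-sulfatase of dermatan sulfate, read 9.87 and 9.54. Of its other probe sets, 1 read 6.11 and 6.02 and 1 read 6.47 and 4.94, a log2 ratio of -1.53. That was the only measured probe set of the 44 genes at least 2-fold lower.

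Of the 7 genes for lipid hydrolases and lipid transfer proteins, 0 reached 2-fold and 1 reached 1.5-fold. By 2-fold the background was 4.42% higher and 2.55% lower, and by 1.5-fold 11.5% and 6.95%. With 7 genes, a count of 0 beside such shares says little. Lipa encodes the acid lipase that frees cholesterol from its esters. It read 8.41 and 9.24, 1.78-fold higher, and its other probe sets had ratios of 0.93 and 0.99. Npc2, whose product hands free cholesterol to the membrane protein of Npc1, read 10.87 and 11.45, with ratios of 0.66 and 0.26 by its other measured probe sets. Npc1 read 7.48 and 7.73. Ppt1, for a palmitoyl-protein thioesterase, read 7.27 and 7.81, but a dimmer probe set read 5.78 and 5.43.

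The sphingolipid genes of this group lay within the probe-set spread. Smpd1, for acid sphingomyelinase, read 9.08 and 9.45. Gm2a, for the activator protein of GM2 ganglioside breakdown, read 9.33 and 9.72, with its other probe sets at 0.06 and -0.40 log2. Asah1, for acid ceramidase, read 11.68 and 11.28. Psap, the precursor of the saposins that present lipids to Galc, Arsa and other hydrolases, read 12.54 and 12.41, and 12.24 and 12.01 by its other probe set. Asah1 and Psap were thus on the lower side.

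Among the 6 genes of the lysosome membrane, Cd68 had the only ratio of 2-fold or more (background 4.42% higher and 2.55% lower). Cd68 is a glycoprotein of late endosomes and lysosomes, best known from macrophages. It read 5.23 and 7.05 by 1449164_at, its only probe set, and was 3.53-fold higher. The parental signal was close to the floor of 4.69, and a floor at the 60th percentile left a ratio of 0.87 log2. Lamp1 and Lamp2 encode the abundant glycoproteins that line the lysosome membrane. Lamp1 read 12.50 and 12.18. The Lamp2 probe sets disagreed, with 1434503_s_at at 11.47 and 11.01 and 1428094_at at 11.48 and 10.99, against 10.91 and 11.18 for 1416344_at and 9.80 and 9.96 for 1416343_a_at. Lamp2 has splice forms that differ in the membrane anchor, and the probe sets were not assigned to them here. Scarb2, for an abundant membrane protein that also serves as a sorting receptor, read 9.84 and 10.35, and 8.35 and 9.11 by its other probe set. The calcium channel gene Mcoln1 read 8.13 and 8.32, with ratios of 0.05 and 0.00 by its other probe sets.

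The regulators differed by less than the probe-set spread. Tfeb read 8.05 and 7.98. Grn, for progranulin, read 11.56 and 11.66, and 11.51 and 11.53, and 11.38 on both arrays, by its 3 probe sets.

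**Figure D2:**
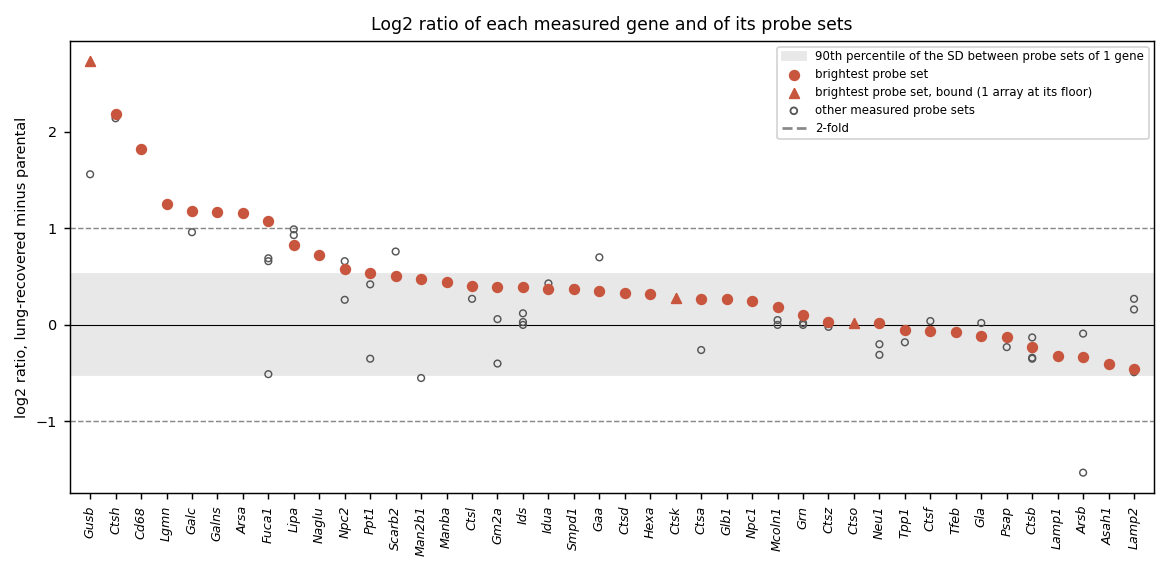
Log2 ratio (lung-recovered minus parental) of the 42 measured lysosomal genes in falling order, by brightest probe set (filled, triangles for bounds) and by other measured probe sets (open), with dashed lines at 2-fold. The grey band is the 90th percentile, 0.52, of the SD between probe sets of 1 gene, and 12 genes lie above it and 0 below, beside 13.5% and 8.36% of all measured genes. The 12 include Gusb, a bound that had to be above 0.

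Of the 27 lysosomal genes with more than 1 measured probe set, 14 had the same sign on all and 13 had signs that differed or a ratio of 0. The other 15 measured genes, among them Lgmn, Cd68, Galns and Arsa, rested on 1. Ctsh and Gusb kept 2-fold by every probe set. Most ratios of 2-fold or more were at lower signals. At a mean signal of 10 log2 or more, a limit chosen after the values were seen, 1 of 16 lysosomal genes was at least 2-fold higher (6.25%, beside 1.74% of all measured genes there), and this was Lgmn. Below it, 7 of 26 were (26.9%, beside 4.96%). The median log2 ratios were 0.19 and 0.38. The 26 include Gusb, Ctsk and Ctso, which had to be on the higher side, and Gusb is among the 7.

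**Figure D3:**
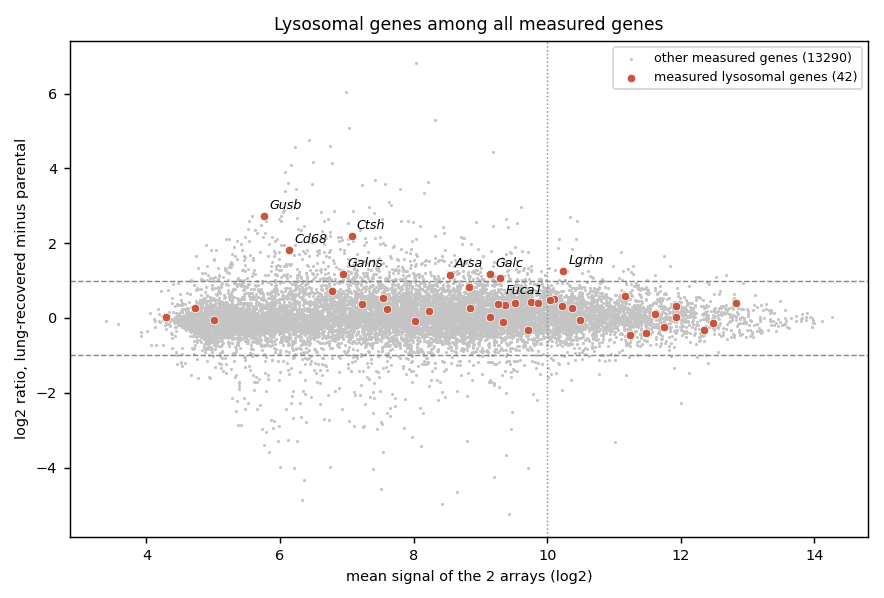
Log2 ratio (lung-recovered minus parental) against mean log2 signal of the arrays for 42 measured lysosomal genes (red) and 13290 other measured genes (grey), with dashed lines at 2-fold and a dotted line at a mean signal of 10. The 8 named genes are at least 2-fold higher, and 0 red points lie under the lower dashed line.

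Related lists did not all share this direction. For the list counts, the background over all measured genes was 4.42% higher and 2.55% lower by 2-fold, and 11.5% and 6.95% by 1.5-fold. A list of further lysosomal hydrolases and related proteins also holds genes of other functions, such as the sulfatase-modifying enzyme gene Sumf1, the acetyltransferase gene Hgsnat and Creg1. Of its 22 measured genes, 0 reached 2-fold, 2 were at least 1.5-fold higher and 3 lower, and the median log2 ratio was 0.01. The furthest from 0 was Man2b2, a mannosidase gene (6.76 and 7.66), and the brightest Scpep1 (11.34 and 11.10). Among 25 other lysosome membrane genes 0 reached 2-fold, with a median of 0.15. The sialic acid transporter gene Slc17a5 was furthest from 0 (5.77 and 6.76), and Laptm4a was the brightest (12.01 and 12.55). Among 18 subunits of the proton pump that acidifies the lysosome, 0 were higher by 2-fold and 1 was lower, and the median was 0.08. The lower one was Atp6v0a4 (7.71 and 6.70), for a subunit known from kidney, and the brightest was Atp6v1c1 (12.48 and 12.09). The differences between these lists and the 44 genes were not tested.

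Of 22 genes for mannose 6-phosphate tagging and Golgi sorting, 4 were higher by 2-fold or more and 1 was lower. This stood beside 8 and 0 of the 42 lysosomal genes, and 4.42% and 2.55% of all measured genes. The median of the list was 0.02. The adaptor gene Gga2, which recruits the receptors into carriers, read 8.05 and 9.89 and was 3.58-fold higher by its only probe set. The large mannose 6-phosphate receptor gene Igf2r read 8.21 and 9.87, and 1.80 log2 by its other probe set. Sort1, for the sorting receptor sortilin, read 6.37 and 7.80, and up to 2.21 log2 by another probe set. Ap1g1, for a subunit of the clathrin adaptor AP-1, read 8.89 and 9.96, but other probe sets went down to 0.05 log2. The lower gene was Cln8, for a membrane protein that takes part in moving lysosomal enzymes out of the endoplasmic reticulum (6.91 and 5.84, and -1.89 to -0.24 log2 over its probe sets). The brightest was the retromer subunit gene Vps35 (12.20 and 12.54). The small receptor gene M6pr read 11.14 and 11.05, and Gnptab, for the enzyme that starts the tag, 7.64 and 7.65.

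Of 5 measured cathepsin inhibitor genes, 1 was at least 2-fold higher and 0 lower. Cst6, for cystatin E/M, which blocks legumain and cathepsin L, read 5.47 and 7.52 and was 4.14-fold higher by its only probe set, beside the 2.38-fold of Lgmn. Cstb, for stefin B, read 12.64 and 12.41, and Cst3, for cystatin C, 11.83 and 11.80. Of 20 genes of the TFEB family and its control, 0 were higher by 2-fold and 1 was lower, and the median was 0.09. That was Mitf, which read 6.42 and, under the floor, 4.36, at least 3.56-fold lower, while Tfe3 read 8.03 and 8.15 and the brightest, Rheb, 12.59 and 12.69. Mitf was measured only through the parental array, by 1 of its 2 probe sets, and so had to be on the lower side.

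**Figure D4:**
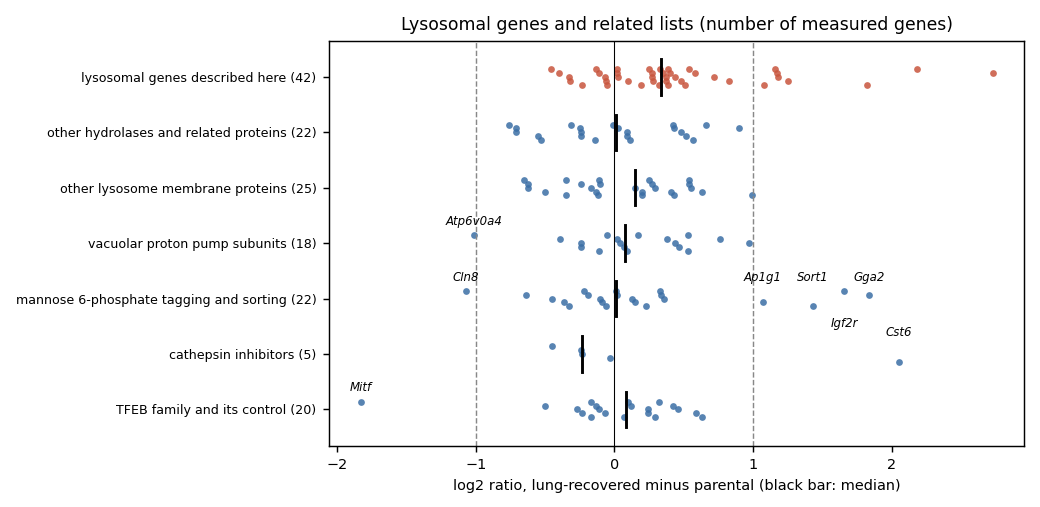
Log2 ratio (lung-recovered minus parental) of each measured gene in the lysosomal genes described here (42, red) and in 6 related lists (blue), with a black bar at each median and dashed lines at 2-fold. The medians are 0.34 for the lysosomal genes and from -0.23 to 0.15 for the other lists, and the named genes are those past 2-fold.

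Cd68 and several cathepsins are also macrophage genes, so markers of other cell types were read on both arrays. Of 20 macrophage and leukocyte markers, 7 were above the floor on each array and 13 at it, among them Ptprc, Adgre1, Itgam, Tyrobp, Aif1 and the C1q genes. Their summed linear signal was 2337 in the parental and 1134 in the lung-recovered line. Cd14 alone gave 1585 and 564 of it. Without Cd14 and Cd74, both lower and left out by a choice that was not planned, the sum was 444 and 466. Cd53, also lower, stayed in this sum, as did Csf1r, which was higher. The part of such cells in the Cd68 value was not tested. In such bulk RNA, more cells of a kind and more RNA per cell cannot be told apart. Cd14, the brightest (10.63 and 9.14), Cd74 (8.27 and 6.70) and Cd53 (6.58 and 4.65) were lower and Csf1r (6.42 and 7.54, 0.02 log2 by another probe set) higher. Of 10 fibroblast markers, 3 were above the floor on each array, with a summed signal of 222 and 196 and Col1a2 brightest at 5.65 and 5.34. Of 12 colorectal epithelial markers, 8 were above the floor on each array, including Epcam, Cdh1 and the keratin genes Krt8, Krt18 and Krt19 (the brightest, 12.72 and 12.98), with a summed signal of 22751 and 30050. Cdh17 was 2-fold higher (5.77 and 6.77). Vil1, Lgals4, Cdx1 and Krt20 were at the floor in both lines, and Cdx2 and Muc2 were just above it, so epithelial markers were present while most markers of differentiated colon were at or near the floor.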

How the data were processed

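Each line was measured on 1 Affymetrix mouse expression array. The authors deposited log2 signals per probe set, 45037 on each array, with medians of 5.36 (parental) and 5.26 (lung-recovered). The log2 base was taken from the values, which give highest linear signals of 19484 and 19893. MAS5 is named in the submitters' processing notes without a role, and the summarisation, scaling and centring are not given in the sources used here. The direction of each ratio follows the sample labels. Percentiles 1 to 99 of the arrays differed by at most 0.11, and the values were used as deposited.

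Probe sets were named by the platform annotation, updated by Entrez identifier to GRCm38.p6. Of 35877 listed probe sets, 34945 had 1 symbol and 932 several, which stay unnamed, as do 9160 not listed. Each gene took its brightest probe set. Signals under an array's 40th percentile (4.69 and 4.59) were set to that floor, and the ratio of a gene above it on 1 array alone is a bound, written "at least". Genes were counted at 2-fold and 1.5-fold, with no test. The steps were tested on simulated data (Python 3.11.15, pandas 2.3.3, statsmodels 0.14.6). These were a copy of the parental array with less noise than the probe-set spread and changes put into genes of middle signal. The changes were larger than most of the 2-fold ratios above. The test therefore checks the steps and says nothing of ratios near the 2-fold limit or signals near the floor.

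The 44 genes and the lists were chosen with earlier results of these data known. All 44 could be named, with further probe sets where the gene was at least 1.5-fold apart or its probe sets disagreed. From each list the text names genes past 2-fold, or the 1 furthest from 0, and the brightest. Sumf1, Hgsnat, Creg1, M6pr, Gnptab, Cst3, Tfe3 and the epithelial markers within 2-fold other than the brightest were named after their values were seen. Of the list symbols, 14 were not analysed here. A planned comparison of protein sequences was not made.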

Additional observations from a re-analysis of the deposited data

How the results depend on the processing

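Under 9 alternatives (equal medians, quantile normalization, lowess, floors at the 20th and 60th percentile or none, the median over probe sets, no suffixed probe sets, and the dimmest measured probe set), the count at least 2-fold higher ranged from 6 to 8. The share of all measured genes at least 2-fold higher ranged from 3.5% with no floor to 5.4% with equal medians. Ctsh, Gusb, Lgmn, Galns and Arsa were counted under all 9. Lgmn, Galns and Arsa have 1 measured probe set each, without a suffix, so alternatives that choose among probe sets could not change them. The floors left their ratios unchanged too, so only the rescalings could move them. Cd68 was missed with the floor at the 60th percentile, Galc and Fuca1 with the dimmest probe set, and Fuca1 also after quantile normalization, after lowess and by the median over probe sets. The 2 rescalings left Fuca1 only just under the limit, at 0.99 and 0.9997 log2. With the dimmest measured probe set, 1 gene, Arsb, was at least 2-fold and at least 1.5-fold lower (in the report 0), Fuca1 was at -0.51 log2, and the medians were -0.18 for the aspartic and serine peptidases and -0.23 for the lipid genes. The former was 0.005 by the median over probe sets, and that of the cysteine cathepsins and legumain was 0.445 and 0.40 with the floor at the 20th and 60th percentile, the first through the lower floor of Ctsk and Ctso and the second with fewer genes measured. The cause of the differences between probe sets was not tested. Of 368 values of single genes under the alternatives, 334 stayed within 0.18 log2 of the reported ratio. Many of these could not move by more, so the count does not measure stability. Equal medians shifted every ratio by 0.10, and a floor leaves genes above it on both arrays unchanged. The 15 genes with 1 measured probe set keep their ratio by the median or the dimmest probe set. Equal medians moved the median ratio of all genes to 0.10 and the number of the 42 genes above 0 from 32 to 35. Signals near the floor limit Gusb, Cd68, Ctsk and Ctso most.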
